A study of Homo sapiens with 8 samples.

Results

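The circadian clock genes CLOCK, ARNTL, PER1, PER2, PER3, CRY1, CRY2, NR1D1, NR1D2 and BHLHE40 were followed in DND41 cells, an established human line of T-cell acute lymphoblastic leukemia, after knockdown of SIRT1. The genes were taken by symbol, as a list drawn up with earlier results of these data known, and 9 of the 10 were measured among 18133 genes. PER1 was not analysed here. Every culture received doxycycline for 72 h in RPMI with serum, which switched on a short hairpin RNA. The hairpin was sh1 against SIRT1 (3 libraries, A, B and C), sh3 against SIRT1 (3 libraries, A, B and C) or a control hairpin (2 libraries, A and C). The labels do not explain the names sh1 and sh3. All groups share the cell line, the doxycycline and the presence of a hairpin. A single time was sampled and no synchronisation of the cells is described, so that levels and not rhythms were compared.

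The clock is a transcriptional loop. CLOCK pairs with ARNTL (also called BMAL1) and activates genes that carry E-boxes, among them the PER and CRY genes, whose proteins return to the nucleus and block that pair. A second loop runs through the nuclear receptors NR1D1 and NR1D2 (REV-ERB alpha and beta), which repress ARNTL, while ROR receptors activate it through the same elements. SIRT1, an NAD-dependent deacetylase, is known to bind CLOCK and to deacetylate ARNTL and PER2, and the NAD it consumes is supplied by NAMPT, itself an output of the clock.

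The E-boxes are shown because they are the letters through which CLOCK and ARNTL act on their target genes. The 250 bases before each RefSeq start (build GRCh38.p14) were searched on both strands for the E-box CACGTG and for its variant CACGTT, which reads AACGTG on the other strand. All 10 genes had such a window, 15 windows in all, and 8 genes held a match, 3 of them an E-box and 5 the variant, in 8 of the 15 windows. Either form was held by 10.6% of all 35116 such windows of the genome. NR1D2 held 2 E-boxes in its second window, and 0.535% of all windows held at least 2. That window is printed whole, chr3:23945871-23946120 on the + strand, with the E-boxes 155 and 105 bases before the start in capitals, and with TGACGT, the first letters of a cyclic AMP response element, 16 bases before it.
NR1D2: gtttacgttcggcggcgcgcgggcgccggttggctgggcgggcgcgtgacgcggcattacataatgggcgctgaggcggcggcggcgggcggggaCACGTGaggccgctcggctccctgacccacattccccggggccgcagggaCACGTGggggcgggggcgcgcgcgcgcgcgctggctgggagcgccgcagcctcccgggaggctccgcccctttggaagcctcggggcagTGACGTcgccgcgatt

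The stretches around the matches of the other measured genes are given 5′ to 3′ on the strand of each gene, with the match in capitals, so that the E-box of BHLHE40 can be set beside the variants. They lie at chr4:55546102-55546131 (- strand), chr2:238288790-238288819 (- strand), chr12:107093621-107093650 (- strand), chr11:45847275-45847304 (+ strand), chr17:40100740-40100769 (- strand) and chr3:4979187-4979209 (+ strand).
CLOCK: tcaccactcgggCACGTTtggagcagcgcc
PER2: ggcgcgcgcggtCACGTTttccactatgtg
CRY1: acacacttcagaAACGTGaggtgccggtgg
CRY2: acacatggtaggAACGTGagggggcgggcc
NR1D1: gcgcaagagctcAACGTGccggctgttgga
BHLHE40: tccaaCACGTGagactcatgtga

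The windows of ARNTL and PER3 held neither form. The letters AGGTCA, the core of the elements shared by REV-ERB and ROR receptors, was found in the windows of 2 genes, PER1 and CRY2, and in 12.1% of all windows. TGACGT was in 7.10% of all windows and among the clock genes in that of NR1D2. No matches overlapped in the clock gene windows. A match is a string of letters and not a measured binding site. By the GENCODE release 29 gene spans all the printed matches but that of NR1D1 lie inside the gene, downstream of its outermost annotated start, and the CRY1 and BHLHE40 windows lie in annotated exons over all 250 bases.

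The deposited values are normalized counts per gene, which summed to between 33087820 and 34072666 per library. SIRT1 stood at 1259, 1312 and 1329 normalized counts with sh1, at 1099, 1217 and 1179 with sh3, and at 1745 and 1920 in the controls (libraries A to C in order), so that every knockdown library was below both controls. SIRT1 fell by 0.57 ± 0.063 on the log2 scale (adjusted p = 0.00030), by 0.65 with sh3 (adjusted p = 0.00014) and by 0.49 with sh1 (adjusted p = 0.0029; without control C -0.43, adjusted p = 0.0504). The labels of library sh3 C disagree, since its title and genotype name SIRT1 knockdown while its description names the control hairpin. It was kept with sh3. Across the tested genes its Spearman coefficient with the other sh3 libraries was at least 0.9955 and with the controls at most 0.9925, and the named results whose call changes without it are given both ways. The cells were plated in triplicate, and no label speaks of separate infections. The p-values therefore rest on culture-to-culture spread that may be technical. Of 10 T-lineage markers 8 were measured. Their sum was 122075 to 126823 normalized counts with sh1, 122308 to 125749 with sh3 and 130006 to 130493 in the controls. In the knockdown 6 of the 8 were called lower and 1 higher (limma, adjusted p under 0.05). Of all genes tested 6.19% were called lower and 6.55% higher. NOTCH1 was not called (-0.20, adjusted p = 0.11). RAG1, the recombinase gene that rose, makes up most of that sum, at 65963 with sh1, 73362 with sh3 and 59243 in the controls. The lowest markers fell most. CD1A, a marker of cortical thymocytes, averaged 528 with sh1, 337 with sh3 and 849 in the controls, and DNTT, the terminal transferase gene, 28.9, 2.55 and 62.0 in sh1, sh3 and control cells. Markers of other cell types were near the floor. The 5 myeloid genes summed to at most 63.4, the erythroid pair to at most 19.97 and the 4 fibroblast or epithelial genes to at most 71.1. The exception was the B-cell list, which summed to 17632 to 19310 with sh1, 23398 to 24802 with sh3 and 24018 to 25739 in the controls, almost all of it CD79A. The part of these shifts in the clock gene results was not tested. In bulk RNA fewer cells of a type and less RNA per cell cannot be told apart.

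Clock genes were expressed at very different levels in these leukemia cells. Levels were divided by the length of the longest coding transcript of each gene (GENCODE release 29) to compare genes. CRY1, a repressor of the CLOCK and ARNTL pair, was the most abundant, at 821 ± 39.6 normalized counts per kb with sh1, 684 ± 17.3 with sh3 and 665 ± 21.1 in the controls (SD, n = 3, 3 and 2). BHLHE40 followed, at 401 ± 33.2, 485 ± 72.6 and 410 ± 31.6 in sh1, sh3 and control cells. CRY2 came next, at 276 ± 40.1, 284 ± 34.8 and 269.7 ± 14.1. The ranges of these 3 genes over the 8 libraries did not overlap one another on this scale, while that of CRY2 overlapped that of NR1D2.

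NR1D2, ARNTL, NR1D1 and PER2 lay close together, with control means of 190.5, 179.8, 169.7 and 160.8 normalized counts per kb, and their ranges over the libraries overlapped. CLOCK was lower, between 50.8 and 81.0 per kb, without overlap with these. PER3 stood far below the rest, between 0.726 and 3.96 per kb. The order depends on the length used. Per kb of the union of all exons CRY1 (419 to 559) and BHLHE40 (343 to 488) overlapped, CRY2 averaged 193 with sh3, below NR1D2 at 229, and ARNTL (69.3 to 93.6) overlapped CLOCK (44.5 to 70.9). On that scale PER3 alone stayed clear of all the others, at 0.566 to 3.09.

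**Figure D1:**
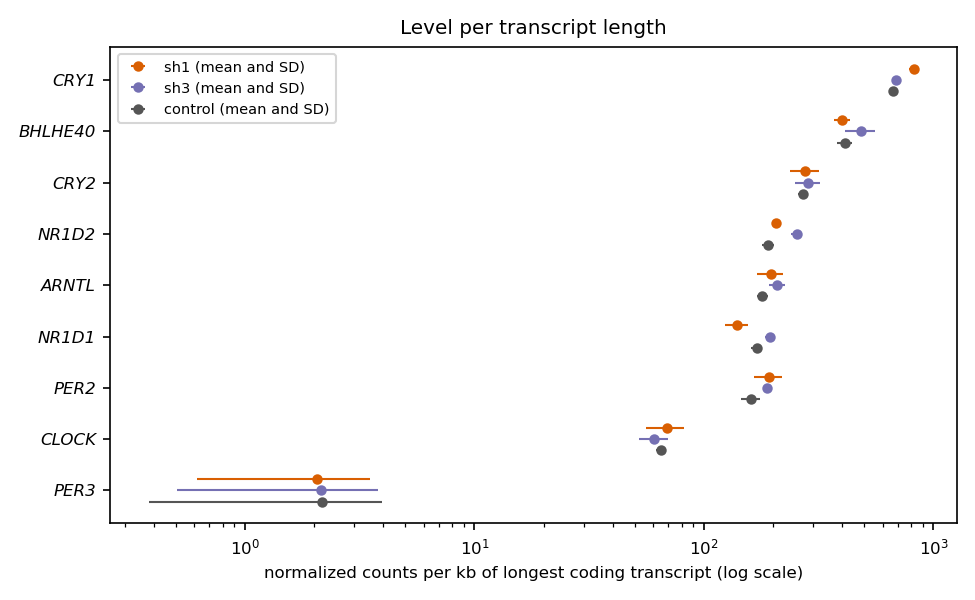
Mean level of each measured clock gene with its SD, in normalized counts per kb of the longest coding transcript on a log axis, for sh1 (n = 3), sh3 (n = 3) and control (n = 2). CRY1 is highest, at 665 per kb in the controls, and PER3 lowest, at 2.18 per kb.

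Across the knockdown as a whole a single clock gene passed the threshold of the test. NR1D2 rose 1.20-fold over the mean of the constructs (1.33-fold with sh3 and 1.09-fold with sh1), and no member was called lower. Of the 9 genes tested 1 was called higher and 0 lower (limma, adjusted p under 0.05), with 3 higher and 0 lower at an unadjusted p under 0.05. Of all 13885 genes tested 12.7% were called in this comparison, 6.55% higher and 6.19% lower, so that 1 of 9 is near the background. The median log2 difference of the 9 was 0.099, against -0.0022 over all genes tested, and 6 of the 9 were above 0. All 6 knockdown libraries lay beyond both controls for 1 of the 9, NR1D2, where 11.9% of all genes tested lay above and 23.2% lay beyond the controls in either direction.

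**Figure D2:**
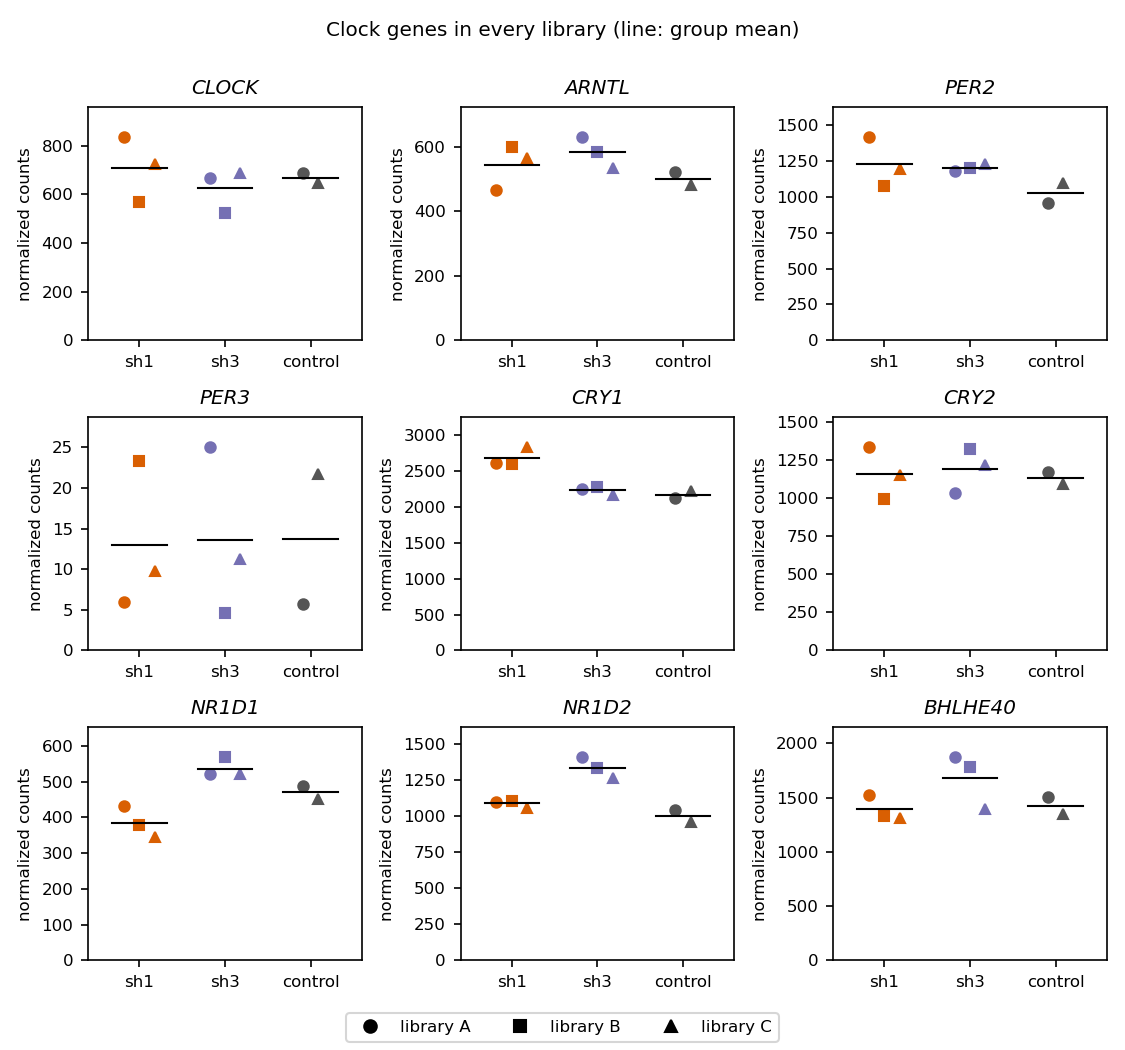
Normalized counts of the 9 measured clock genes in each library (points, shaped by library letter) with the group mean (line), for sh1, sh3 and control, on axes that start at 0. NR1D2 is highest in sh3, CRY1 in sh1, and PER3 scatters between 4.58 and 24.99 over the libraries.

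No change of the activators passed the test. CLOCK, which carries an acetyltransferase activity beside its DNA binding, had 834, 570.4 and 723 normalized counts with sh1, 669, 524 and 687 with sh3, and 688 and 648 in the controls. The groups overlapped, and the highest and lowest libraries were sh1 A and sh3 B. Averaged over the constructs, CLOCK differed from control by -0.016 ± 0.14 (log2, SE; adjusted p = 0.96), with a 95% interval of -0.32 to 0.28. That interval leaves room for a change by about the size of the one seen in NR1D2.

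ARNTL had 466, 601 and 565 normalized counts with sh1, 629, 583 and 536 with sh3, and 521 and 481 in the controls. All 3 sh3 libraries were above both controls, while sh1 A was below them. The log2 difference for the mean of the constructs was 0.16 ± 0.10 (adjusted p = 0.34; 95% interval -0.065 to 0.39). With sh3 alone it was 0.22 (adjusted p = 0.23). ARNTL and the genes PER2, NR1D1 and NR1D2 were the 4 of 9 with every sh3 library above both controls, where 24.8% of all genes lay above, 25.1% below and 49.8% on either side.

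Of the PER genes, PER2 was the closest to a change. It had 1412, 1073 and 1194 normalized counts with sh1, 1177, 1199 and 1229 with sh3, and 957 and 1096 in the controls. The sh3 libraries were all above both controls and close together, and of the sh1 libraries 1 fell between the controls. PER2 differed by 0.24 ± 0.093 on the log2 scale (adjusted p = 0.12; 95% interval 0.035 to 0.45), which did not pass the threshold over all genes. The change was 0.25 with sh1 and 0.23 with sh3, and leaving out any library kept it between 0.14 and 0.34 with adjusted p of 0.055 to 0.52.

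PER3 was barely detected. It had 6.02, 23.3 and 9.76 normalized counts with sh1, 24.99, 4.58 and 11.2 with sh3, and 5.73 and 21.8 in the controls. High and low libraries occurred in every group. The most frequent low value in a library was 0.885 to 1.14 normalized counts, while PER3 lay between 4.58 and 24.99. Its 95% interval of -1.48 to 1.44 on the log2 scale spans large changes in either direction, and no difference was detectable at this depth. Of its sequence, 15.2% of the 31-base words in its transcripts occur on the opposite strand of other genes, mainly UTS2.

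The cryptochromes CRY1 and CRY2, which bind the CLOCK and ARNTL pair and hold it inactive, were both well expressed. CRY1 had 2613, 2602 and 2831 normalized counts with sh1, 2245, 2284 and 2172 with sh3, and 2123 and 2221 in the controls. All 3 sh1 libraries were above every other library, and the sh3 libraries overlapped the controls. CRY1 rose with sh1, by 0.30 ± 0.059 on the log2 scale (1.23-fold, adjusted p = 0.014), where 6.31% of all genes were called, 2.88% higher and 3.43% lower. It was the 1 of 9 clock genes called with sh1. CRY1 and NR1D2 were the 2 of 9 with every sh1 library above both controls and NR1D1 the 1 of 9 with every sh1 library below, where 19.3% of all genes lay above, 18.9% below and 38.2% on either side.

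With sh3 CRY1 differed by 0.040 ± 0.059 (adjusted p = 0.68). Averaged over the constructs it differed by 0.17 ± 0.052 (adjusted p = 0.053). The call with sh1 was lost without control A (0.27, adjusted p = 0.092) or control C (0.34, adjusted p = 0.070), where the other control stands alone and is taken to vary like the other groups, and with no variance trend (adjusted p = 0.065). Without sh1 A the mean of the constructs passed (0.18, adjusted p = 0.046). Over all alternatives the adjusted p of CRY1 with sh1 ran between 0.0093 and 0.092.

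CRY2 had 1335, 998 and 1154 normalized counts with sh1, 1038, 1327 and 1219 with sh3, and 1176 and 1092 in the controls. Both knockdown groups reached above and below the controls. The log2 difference for the mean of the constructs was 0.048 ± 0.11 (adjusted p = 0.82; 95% interval -0.19 to 0.29).

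The REV-ERB receptor genes differed between the constructs, and NR1D2 also differed from control. NR1D2 (chromosome 3, 23945260 to 23980618, GRCh38, + strand), whose window holds the 2 E-boxes above, had 1099.8, 1102 and 1058 normalized counts with sh1, 1405, 1331 and 1265 with sh3, and 1044 and 959 in the controls. The groups stood in the order sh3, sh1 and control with no overlap. For the mean of the constructs NR1D2 rose by 0.27 ± 0.064 on the log2 scale (adjusted p = 0.020).

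With sh3 the rise of NR1D2 was 0.41 ± 0.071 (1.33-fold, adjusted p = 0.0028). It was the 1 of 9 clock genes called there, where 18.6% of all genes were called, 9.36% higher and 9.19% lower. With sh1 the difference was 0.12 ± 0.071 (adjusted p = 0.36). Without sh3 C the values were 0.28 (adjusted p = 0.020) for the constructs averaged and 0.45 (adjusted p = 0.0042) for sh3. The call for the mean of the constructs was lost without control C (0.20, adjusted p = 0.22) and with no variance trend (adjusted p = 0.055), and the range over its alternatives was 0.015 to 0.22. The call with sh3 held in all 16 alternatives, with adjusted p of 0.0022 to 0.043.

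NR1D1 (chromosome 17, 40092787 to 40100725, - strand) had 432, 379 and 345 normalized counts with sh1, 521, 568 and 521 with sh3, and 489 and 452 in the controls. All sh1 libraries were below both controls and all sh3 libraries above them. Neither construct differed from control past the threshold, with -0.29 ± 0.11 for sh1 (adjusted p = 0.14) and 0.19 ± 0.11 for sh3 (adjusted p = 0.26), so that their mean was -0.051 ± 0.097 (adjusted p = 0.78). NR1D1 overlaps THRA, a thyroid hormone receptor gene on the opposite strand, and 8.72% of its 31-base words lie in THRA transcripts. THRA had 2211 ± 108 normalized counts with sh1, 2165 ± 101 with sh3 and 1968 ± 53.5 in the controls (SD, n = 3, 3 and 2), and its constructs differed by 0.030 (adjusted p = 0.79).

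BHLHE40 (DEC1), a repressor that binds E-boxes and competes with CLOCK and ARNTL, had 1525, 1335 and 1317 normalized counts with sh1, 1871, 1786 and 1398 with sh3, and 1503 and 1347 in the controls. The libraries sh3 A and sh3 B were above all others, while sh3 C, whose labels disagree, lay between the controls. With sh3 BHLHE40 differed by 0.23 ± 0.12 on the log2 scale (adjusted p = 0.19). Without sh3 C that difference was 0.36 (adjusted p = 0.024), and over all alternatives the adjusted p ran between 0.024 and 0.59. The mean of the constructs differed by 0.099 ± 0.10 (adjusted p = 0.58) with that library and by 0.16 (adjusted p = 0.19) without it.

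**Figure D3:**
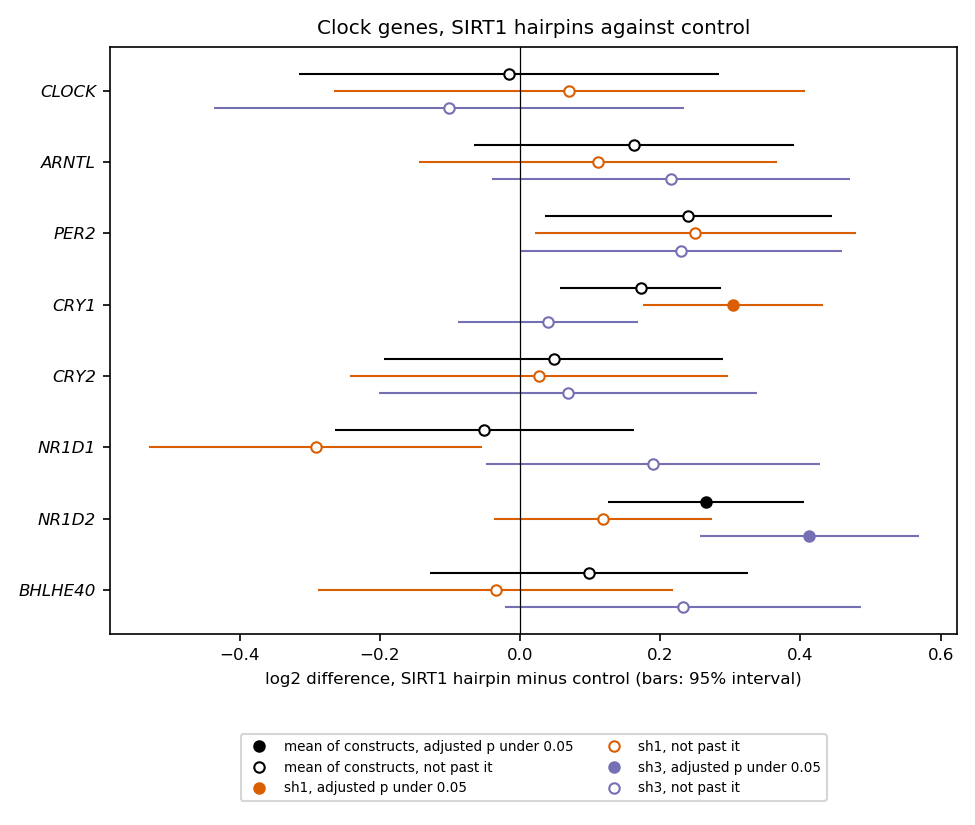
Log2 difference from control of 8 clock genes for the mean of the constructs, sh1 and sh3, with 95% intervals; filled points passed an adjusted p of 0.05. NR1D2 passed for the mean of the constructs (0.27) and sh3 (0.41) and CRY1 for sh1 (0.30); PER3, with an interval from -1.48 to 1.44, is left out of the plot, and the comparisons share the 2 controls.

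The direct comparison of sh1 with sh3 asked which clock genes the hairpins left at different levels, and it does not use the controls for its difference. It called 3 of 9 clock genes, 1 higher and 2 lower with sh1, where 11.4% of all genes were called, 5.61% higher and 5.83% lower. NR1D1 was lower with sh1 by 0.48 ± 0.097 on the log2 scale (adjusted p = 0.0085), which is 0.716 times its sh3 level. NR1D2 was lower with sh1 by 0.29 ± 0.064 (adjusted p = 0.012). CRY1 was higher with sh1 by 0.26 ± 0.052 (adjusted p = 0.0079).

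For each of these 3 genes the sh1 and sh3 libraries did not overlap, as for 30.5% of all genes tested, 15.2% in each direction. Both NR1D1 and CRY1 stayed called with every library left out in turn, sh3 C included (-0.50, adjusted p = 0.023, and 0.24, adjusted p = 0.033). That of NR1D2 was lost without sh3 A (-0.26, adjusted p = 0.060; range over alternatives 0.011 to 0.060). BHLHE40 was not called, at -0.27 ± 0.10 (adjusted p = 0.13), but was called without sh3 C (-0.40, adjusted p = 0.016; range over alternatives 0.016 to 0.36) and with the replicate letter as a block (adjusted p = 0.0495). SIRT1 itself differed between the constructs by 0.16 ± 0.063, with an adjusted p of 0.14. CLOCK, ARNTL, PER2 and CRY2 differed by 0.17, -0.10, 0.020 and -0.042, with adjusted p of 0.48 to 0.92.

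**Figure D4:**
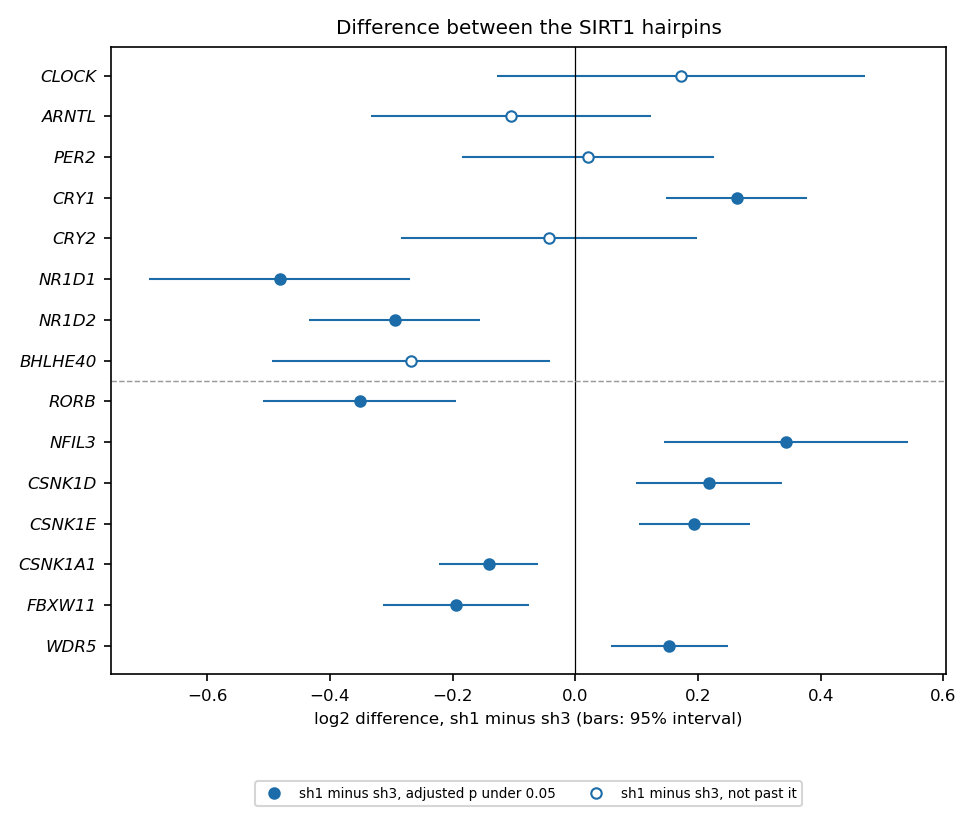
Log2 difference of sh1 minus sh3 with 95% intervals for 8 clock genes (above the dashed line) and for the 7 other clock network genes that passed an adjusted p of 0.05 (below it, chosen for passing). NR1D1 (-0.48) and NR1D2 (-0.29) were lower with sh1 and CRY1 (0.26) higher.

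The wider clock network was read from a list of 34 further genes, of which 31 were measured and 29 tested. BHLHE41, FBXL21 and PASD1 were not analysed here. HLF and USP2 had means under 10 normalized counts, HLF between 0 and 3.46 and USP2 between 0.376 and 12.3. In the knockdown as a whole 6 of the 29 rose and 2 fell, against 12.7% of all genes called. With sh1 2 rose and 2 fell, against 6.31%, and with sh3 7 rose and 3 fell, against 18.6%. The median log2 difference was 0.022, against -0.0022 over all genes, and the median size of a difference was 0.088, against 0.13 over all genes.

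Of the ROR receptors, which activate through the elements that REV-ERB proteins repress, RORB rose. It had 2086, 1982 and 2146 normalized counts with sh1, 2944, 2568 and 2437 with sh3, and 1822 and 1676 in the controls. Every knockdown library was above both controls, and the sh3 libraries were above the sh1 libraries. The log2 difference was 0.42 ± 0.072 (adjusted p = 0.0042; without control C 0.36, adjusted p = 0.082). With sh3 RORB rose by 0.60 (adjusted p = 0.00061), while with sh1 it was not called (0.24, adjusted p = 0.099). RORB was lower with sh1 than with sh3 by 0.35 ± 0.072 (adjusted p = 0.0090), as were both REV-ERB genes. RORA, the family member best known from the clock of other tissues, had 31.3 ± 5.17 normalized counts with sh1, 40.9 ± 5.07 with sh3 and 26.8 ± 12.8 in the controls (adjusted p = 0.31).

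NAMPT, the rate-limiting enzyme of NAD salvage and so of the supply of the substrate of SIRT1, rose with both constructs. It had 3144, 2983 and 3031 normalized counts with sh1, 2991, 3176 and 3108 with sh3, and 2683 and 2501 in the controls. All 6 knockdown libraries were above both controls. The log2 difference was 0.25 ± 0.049 for the mean of the constructs (adjusted p = 0.0093), 0.24 with sh1 (adjusted p = 0.030) and 0.25 with sh3 (adjusted p = 0.0091), and the constructs differed by -0.018 (95% interval -0.13 to 0.090). With a library left out the call with sh1 was kept in 3 of 8 fits and that with sh3 in 7. The call with sh1 was also lost with no variance trend (adjusted p = 0.095) and with the replicate letter as a block (adjusted p = 0.071). The call for the mean was lost without control C (0.19, adjusted p = 0.14; range over alternatives 0.0073 to 0.14).

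Other outputs were split. KLF10, a Kruppel-like repressor that is a clock output in mouse liver, rose by 0.46 ± 0.12 (adjusted p = 0.033). It had 315, 341 and 395 normalized counts with sh1, 419, 417 and 392 with sh3, and 319 and 236 in the controls. The sh1 A library was thus below control A. TSC22D3, a glucocorticoid-induced leucine zipper gene, rose by 0.70 ± 0.20 (adjusted p = 0.040). It was low, at 72.5 ± 1.68 normalized counts with sh1 and 97.6 ± 21.0 with sh3, against 51.2 ± 9.19 in the controls. KLF10 and TSC22D3 were called with sh3 (0.57 and 0.90, adjusted p = 0.016 and 0.017). Those calls were kept in 6 and 5 of 8 fits with a library left out. Without sh3 C the call of TSC22D3 with sh3 was lost (0.79, adjusted p = 0.052). With sh1 neither KLF10 nor TSC22D3 was called (0.34 and 0.50, adjusted p = 0.17 and 0.21). WEE1, a cell cycle kinase gene with E-boxes in mouse, and PPARA were not called for the mean of the constructs (-0.14 and -0.20, adjusted p = 0.19 and 0.16). With sh3 WEE1 fell by 0.25 (adjusted p = 0.039; without sh3 C -0.21, adjusted p = 0.11), a call kept in 3 of 8 fits with a library left out. The KLF10 call for the mean of the constructs was lost without sh1 B, sh3 A or sh3 B (adjusted p 0.053 to 0.066). It was also lost without control C, where the difference was 0.25. That of TSC22D3 held with 1 of the 8 libraries left out, sh3 B, and was lost with each of the others (adjusted p of 0.054 to 0.25), sh3 C included (0.65, adjusted p = 0.066).

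Among the proteins that modify or join the PER and CRY complexes, PRKAA1, the AMP-activated kinase subunit that marks CRY1 for degradation in mouse, rose by 0.18 ± 0.049 (adjusted p = 0.033). NONO, an RNA-binding partner of PER proteins, rose by 0.20 ± 0.043 (adjusted p = 0.014), at 38619 ± 1232 normalized counts with sh1 and 41849 ± 1832 with sh3, against 35046 ± 173 in the controls. WDR5, a subunit of histone methyltransferase complexes that also joins PER proteins, fell by 0.17 ± 0.044 (adjusted p = 0.030). SIAH2, a ubiquitin ligase of REV-ERB alpha, fell by 0.25 ± 0.065 (adjusted p = 0.027). With a library left out the differences kept their sign, while calls were lost. PRKAA1 ran between 0.12 (without control C) and 0.24, and lost its call without sh1 B, sh3 A, sh3 C (0.18, adjusted p = 0.055) or control C (adjusted p = 0.34). SIAH2 ran between -0.31 and -0.20, and lost its call without sh1 B, sh3 A, control A or control C (highest adjusted p 0.26). NONO stayed between 0.18 and 0.22, and lost its call without either control (highest adjusted p 0.13). WDR5 kept its call in 3 of the 8 fits, those without sh1 A, sh1 C or sh3 C (highest adjusted p 0.15), with differences of -0.18 to -0.15. With sh3 alone both NONO (0.26, adjusted p = 0.0047) and WDR5 (-0.24, adjusted p = 0.0062) were called in 8 of 8 such fits. With sh1 neither was called (0.14 and -0.090, adjusted p = 0.12 and 0.31). PRKAA1 and SIAH2 were called with sh1 (0.25 and -0.34, adjusted p = 0.025 and 0.021), in 6 and 5 of 8 such fits. With sh3 neither was called (0.12 and -0.17, adjusted p = 0.16 and 0.14). PRKAA1 in sh3 B, at 3975 normalized counts, was below control A, at 3995.

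The casein kinase genes CSNK1D and CSNK1E, whose products phosphorylate PER proteins, were not called for the mean of the constructs (-0.085 and 0.013, adjusted p = 0.34 and 0.87). With sh3 CSNK1D fell by 0.19 (adjusted p = 0.047; without sh3 C -0.22, adjusted p = 0.054), a call kept in 2 of 8 fits with a library left out. With sh1 CSNK1A1, of the same family, fell by 0.16 (adjusted p = 0.044), a call kept in 0 of 8. GSK3B, a kinase of several clock proteins, had 3248, 3139 and 3065 normalized counts with sh1, 3357, 3614 and 3150 with sh3, and 2898 and 2843 in the controls. Every knockdown library was above both controls. GSK3B differed by 0.18 ± 0.056 for the mean of the constructs (adjusted p = 0.053; without sh3 C 0.21, adjusted p = 0.028; range over alternatives 0.028 to 0.28) and rose by 0.23 with sh3 (adjusted p = 0.025), a call kept in 4 of 8 fits. NPAS2, the paralog of CLOCK, was at 662 ± 50.9 normalized counts with sh1, 743 ± 27.9 with sh3 and 613 ± 2.50 in the controls (0.19 ± 0.076, adjusted p = 0.12). With sh3 alone NPAS2 rose by 0.28 (adjusted p = 0.044; without sh3 C 0.26, adjusted p = 0.10), a call kept in 2 of 8 fits. DBP, a direct output of CLOCK and ARNTL, was at 1078 ± 56.6, 1166 ± 86.0 and 1065 ± 31.8 in sh1, sh3 and control cells (0.072 ± 0.071, adjusted p = 0.55). TIMELESS, which in mammals serves mainly DNA replication, differed by 0.016 (95% interval -0.068 to 0.10).

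**Figure D5:**
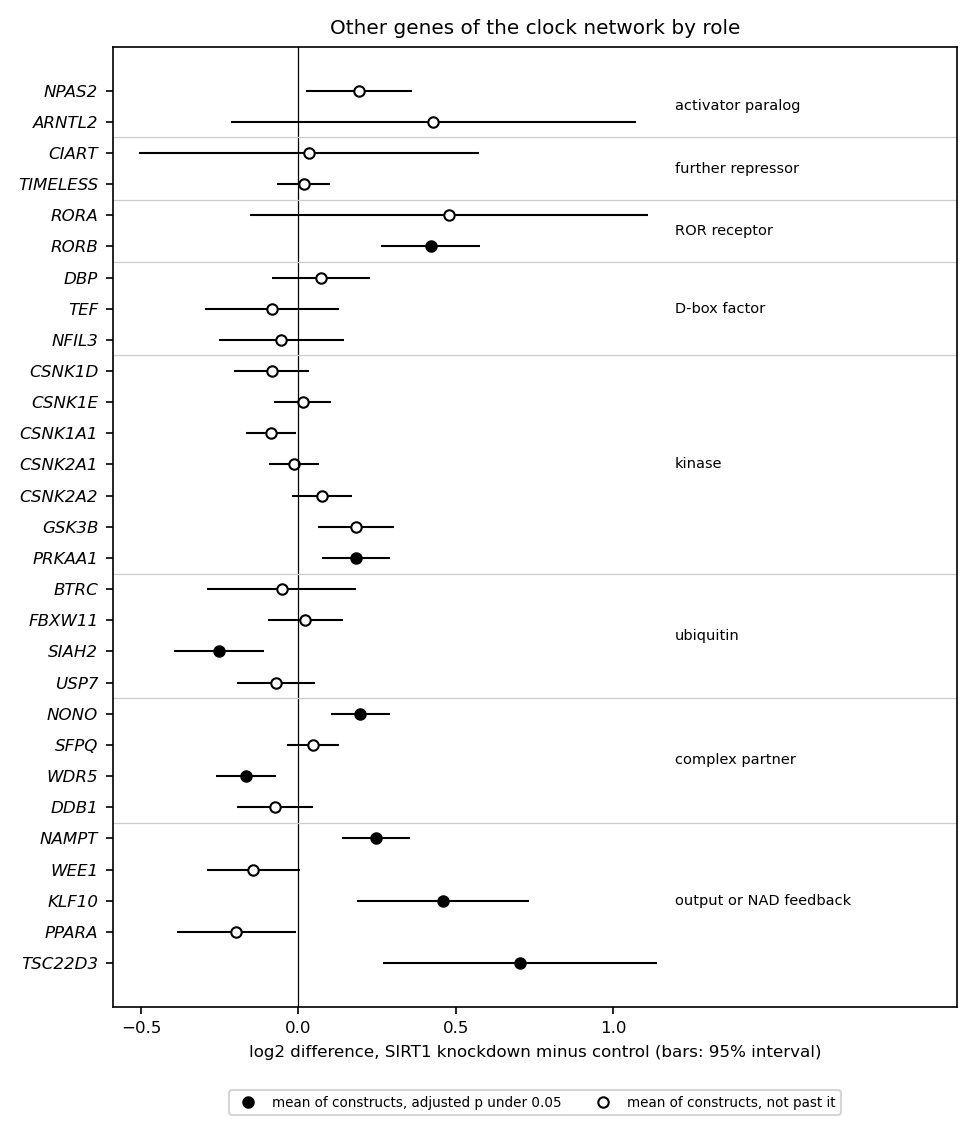
Log2 difference of SIRT1 knockdown minus control with 95% intervals for the 29 tested genes of the wider clock network, grouped by role; filled points passed an adjusted p of 0.05. RORB (0.42), NAMPT (0.25), KLF10, TSC22D3, PRKAA1 and NONO rose and SIAH2 (-0.25) and WDR5 (-0.17) fell.

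Genes with the profile most like that of a clock gene were sought by the root mean square difference of log2 values over the 8 libraries, after each gene was centred on its mean, for the 3 members with the smallest p in the knockdown. Nearest to NR1D2 were AP000346.2 (0.024), WIPF1 (0.038), a partner of the actin regulator WASP, and FAM117A (0.040). WIPF1 had means of 11380 normalized counts with sh1, 13687 with sh3 and 10181 in the controls, the same order as NR1D2. Nearest to CRY1 were KIF7 (0.033), a kinesin of Hedgehog signalling, CEP55 (0.035), a cytokinesis gene, and DNAJC21 (0.049). CEP55 averaged 3654 normalized counts with sh1, 3165 with sh3 and 3000 in the controls, and so was highest with sh1 as CRY1 was. Nearest to PER2, at larger distances, were AGFG2 (0.062), MAP3K14 (0.067), the NF-kB inducing kinase gene, and TP53BP2 (0.067).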

How the data were processed

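The authors deposited normalized counts (a signal that is never negative), 1 row per gene symbol. Per the submitters' processing notes, kallisto 0.44.0, DESeq and hg38 were used. Neither annotation nor filters are stated there. Values are not whole numbers, so whole reads were not recovered and no count test was run. Divided by the most frequent low value of their library, 11.8% to 41.1% of the low values came within 0.02 of a whole number. Depth in reads is unknown.

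Values were analysed as log2(value + 1), which understates changes of low genes, after a filter on the mean (minimum 10), which left 13885 genes. A limma 3.58.1 model in R 4.3.3 with 3 group means, 5 residual degrees of freedom and a variance trend gave 4 two-sided contrasts, adjusted by Benjamini-Hochberg over all genes tested. The members, lists and tests were chosen with earlier results of these data known. The text names all members, SIRT1, network genes past the threshold in the knockdown as a whole, RORA, NPAS2, DBP and NAMPT, and a few list genes chosen after their values were seen (WEE1, PPARA, CSNK1D, CSNK1E, CSNK1A1, GSK3B, TIMELESS). The procedure was tested on simulated data. Alternatives were other pseudocounts (0.5, 10), filters (none, 50), scalings, no trend, a replicate block and each library left out; those for GSK3B and for network genes with 1 construct were added after seeing the data. Coordinates and lengths are from GENCODE release 29 (GRCh38), promoters from RefSeq (GRCh38.p14). Whether counting used the strand is not given. Protein sequences were not used here, and some genes of the network list are not reported here and are left out of its counts.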

Additional observations from a re-analysis of the deposited data

Results flagged for a closer look

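The effects of the hairpins sh1 and sh3 differed, by the test of sh1 against sh3 itself, in 3 of the 9 clock genes. Of all genes tested 11.4% were called there. The log2 differences of sh1 minus sh3 were -0.48 for NR1D1 (adjusted p = 0.0085), -0.29 for NR1D2 (adjusted p = 0.012) and 0.26 for CRY1 (adjusted p = 0.0079). All 3 sh1 libraries lay on the same side of all 3 sh3 libraries in each, as for 30.5% of all genes tested. The call of NR1D2 was lost without sh3 A (-0.26, adjusted p = 0.060).

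The same test marked 7 of the 29 other clock network genes, where 11.4% of all genes were called. RORB (-0.35, adjusted p = 0.0090), CSNK1A1 (-0.14, adjusted p = 0.029) and FBXW11 (-0.19, adjusted p = 0.040) were lower with sh1. NFIL3, a repressor at D-boxes, was higher with sh1 (0.34, adjusted p = 0.030), as were CSNK1D (0.22, adjusted p = 0.024), CSNK1E (0.19, adjusted p = 0.011) and WDR5 (0.15, adjusted p = 0.044). With each library left out in turn RORB was called in 8 of 8 fits, CSNK1E in 7, CSNK1D in 5, NFIL3 in 4, CSNK1A1 in 3, FBXW11 in 2 and WDR5 in 0. The largest adjusted p among these fits was 0.040 for RORB (without sh1 B), 0.053 for CSNK1E (without sh3 A) and between 0.093 and 0.15 for the other 5. Without sh3 C, whose labels disagree, NFIL3 (0.36, adjusted p = 0.061), CSNK1A1 (-0.15, adjusted p = 0.060) and WDR5 (0.17, adjusted p = 0.058) were not called. Without the variance trend RORB (adjusted p = 0.057), CSNK1D (0.098), CSNK1A1 (0.086), FBXW11 (0.091) and WDR5 (0.080) were not called.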

How the results depend on the processing

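Of the 9 clock genes, 1 was called in the knockdown as a whole. The count was 2, with CRY1 added to NR1D2, under a minimum mean of 50 and with libraries scaled to the same total. It was 0 (2 at an unadjusted p under 0.05) without the variance trend, where the count with sh1 was also 0 (2 unadjusted) and the other network genes numbered 2 in place of 8. With a library left out the counts ran between 0 and 2 for the knockdown, 0 and 1 for sh1, 1 and 2 for sh3, 2 and 4 for sh1 against sh3, and 0 and 8 for the network genes, with the 0 of the network (7 at an unadjusted p under 0.05) without control C. For the network genes with 1 construct, alternatives chosen after seeing the data gave 0 without the trend (9 unadjusted) and 2 with the replicate block in place of 4 with sh1, and 5 without the trend in place of 10 with sh3. With a library left out these counts ran between 0 and 3 and between 4 and 10. Over all genes 1768 were called in the knockdown, against 744 without the trend, 933 without control A and 339 without control C. The number was 1903 at equal totals and 1928 of 11399 genes under a minimum mean of 50. With all libraries 876 genes were called with sh1, 2576 with sh3 and 1589 between the constructs. These numbers were 236, 1531 and 968 without the trend. With 1 SIRT1 hairpin library left out they ran between 376 and 784, 1536 and 2926, and 926 and 1765. PRKAA1 lost its call at equal upper quartiles (0.16, adjusted p = 0.057), WDR5 at equal totals (-0.15, adjusted p = 0.052) and TSC22D3 with no filter (0.70, adjusted p = 0.051).

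Same-letter deviations over all genes tested correlated between -0.062 and 0.058. Different letters were not compared, so that pairing by letter was not settled. With the letter as a replicate block the counts of clock genes were 1, 1, 1 and 4, and 6 for the network. Over all 13885 genes 1292, 549, 2071 and 1495 were called with the block, for the knockdown, sh1, sh3 and sh1 against sh3. WDR5 (-0.15, adjusted p = 0.081) and KLF10 (0.46, adjusted p = 0.077) lost their calls in the knockdown, as did FBXW11 and WDR5 between the constructs. BHLHE40 was gained there (-0.27, adjusted p = 0.0495).

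Signs turned where differences were small. For the knockdown CLOCK was 0.00364 at equal totals and 0.12 with the block, and 0.035 with the block for sh3. PER3 was 0.0084, 0.016 and 0.00051 with the block for the knockdown, sh1 and sh3, and -0.013 between constructs with a pseudocount of 10. With a library left out the knockdown value ran between -0.078 and 0.059 for CLOCK, -0.90 and 0.86 for PER3, -0.0055 and 0.10 for CRY2, -0.11 and 0.0058 for NR1D1, and -0.0087 and 0.97 for RORA. With sh1 it was -0.055 to 0.22 for CLOCK, -0.89 to 0.86 for PER3, -0.078 to 0.13 for CRY2 and -0.11 to 0.044 for BHLHE40. With sh3 it was -0.17 to 0.023 for CLOCK, -0.91 to 0.85 for PER3 and -0.011 to 0.17 for CRY2. Between constructs it was -0.18 to 0.0021 for ARNTL, -0.086 to 0.11 for PER2, -0.54 to 0.57 for PER3 and -0.15 to 0.063 for CRY2. The causes were not tested.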
